A study of Homo sapiens with 12 samples.

Results

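The ATP-binding cassette (ABC) family was taken as every gene whose single platform symbol begins with ABCA, ABCB, ABCC, ABCD, ABCE, ABCF or ABCG followed by a number, with pseudogenes and antisense genes left out. This rule, which uses no measured value, gave 38 genes of the 13530 with a transcript cluster (the array's unit for a gene) of their own. Each of the 38 had 1 cluster of its own, and ABCB8 was also annotated to a cluster shared with ASIC3. Expression was measured on 12 Affymetrix arrays, 1 per sample, in U-87MG, an established human glioblastoma line. All 12 samples were of a stable line carrying a control shRNA (shCtrl, delivered by lentivirus), so the cells with and without ligand shared it. The 3 groups of 4 arrays received the solvent DMSO (at most 0.2%), 100 nM FICZ (6-formylindolo(3,2-b)carbazole, a tryptophan-derived ligand of the aryl hydrocarbon receptor, AHR) or 50 µM kynurenic acid (KynA, a metabolite of the kynurenine pathway), each for 24 h. The replicates are labelled biological, and nothing says that they came from separate cultures or days, so a p-value here reflects how these samples scatter, part of which may be technical.

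ABC proteins bind and hydrolyse ATP, and most use that energy to move a substrate across a membrane. Members pump drugs and conjugated metabolites out of cells, carry cholesterol, phospholipids and bile salts, serve mitochondria, lysosomes and peroxisomes, or regulate potassium channels, while the ABCE and ABCF proteins have no membrane part and act in translation. AHR is a transcription factor that enters the nucleus after binding a ligand and, with its partner ARNT, binds DNA around the core GCGTG. ABCG2, the breast cancer resistance protein, is an exporter of drugs and urate that is reported to be an AHR target.

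The values are log2 signals, and testing was limited to genes that exceeded the 25th percentile (7.687 to 7.743, depending on the array) on 4 or more arrays. Of the 38 members, 29 passed this filter and 9 did not. A gene was called at a limma adjusted p under 0.05 over the 10807 genes tested, two-sided, and the FICZ and KynA comparisons share the DMSO arrays. Probes differ in brightness, so a level is compared here only between arrays for the same gene. Correlations between arrays over all 13530 genes with a cluster of their own, before the filter, ran from 0.9395 to 0.9749. Array FICZ 4 had the lowest array weight, 0.551. The mean of the glioblastoma line markers VIM, NES, CD44, FN1 and CHI3L1 lay between 10.79 and 11.12 on each array.

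No tested ABC gene passed the threshold in any comparison. With FICZ against DMSO, 0 of 29 tested members were called, where 0.851% of all genes tested were. With KynA against DMSO the count was 0 of 29, against 0.00925% of all genes, and with FICZ against KynA it was 0 of 29, against 0.00925%. At shares this low, 0 called in a list of this size or shorter, here or below, says little of that list. At an unadjusted limma p under 0.05, 3 of 29 members differed between FICZ and DMSO, where 14.5% of all genes did. ABCG2 and ABCB8 were higher (2 of 29, against 5.89% of all genes) and ABCE1 was lower (1 of 29, against 8.65%). ABCB8 passed the filter on 4 arrays, all with a ligand, so it was tested only through the groups in which it was higher and supports nothing in these counts. For KynA against DMSO it was 1 of 29, again ABCB8 alone, where 3.39% of all genes did. For FICZ against KynA it was 2 of 29, where 8.34% of all genes did. ABCG2 was higher in FICZ (1 of 29, against 3.12%) and ABCG8 lower (1 of 29, against 5.22%).

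The 95% interval of the difference lay within 1.5-fold either way for 24 of 29 members with FICZ against DMSO, 25 of 29 with KynA against DMSO and 27 of 29 with FICZ against KynA, and within 2-fold for all 29 in each. Of all genes tested, 89.5%, 94.8% and 92.6% had intervals within 1.5-fold in these comparisons, and 98.7%, 99.5% and 99.3% within 2-fold. The exceptions at 1.5-fold were ABCB8, ABCG1, ABCG5 and ABCG8 with either ligand against DMSO, ABCC11 also with FICZ against DMSO, and ABCC11 and ABCG8 between the ligands. The SE of a member's difference ran from 0.0761 to 0.188 on the log2 scale. The smallest difference among the genes that changed with FICZ was 0.328.

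**Figure D1:**
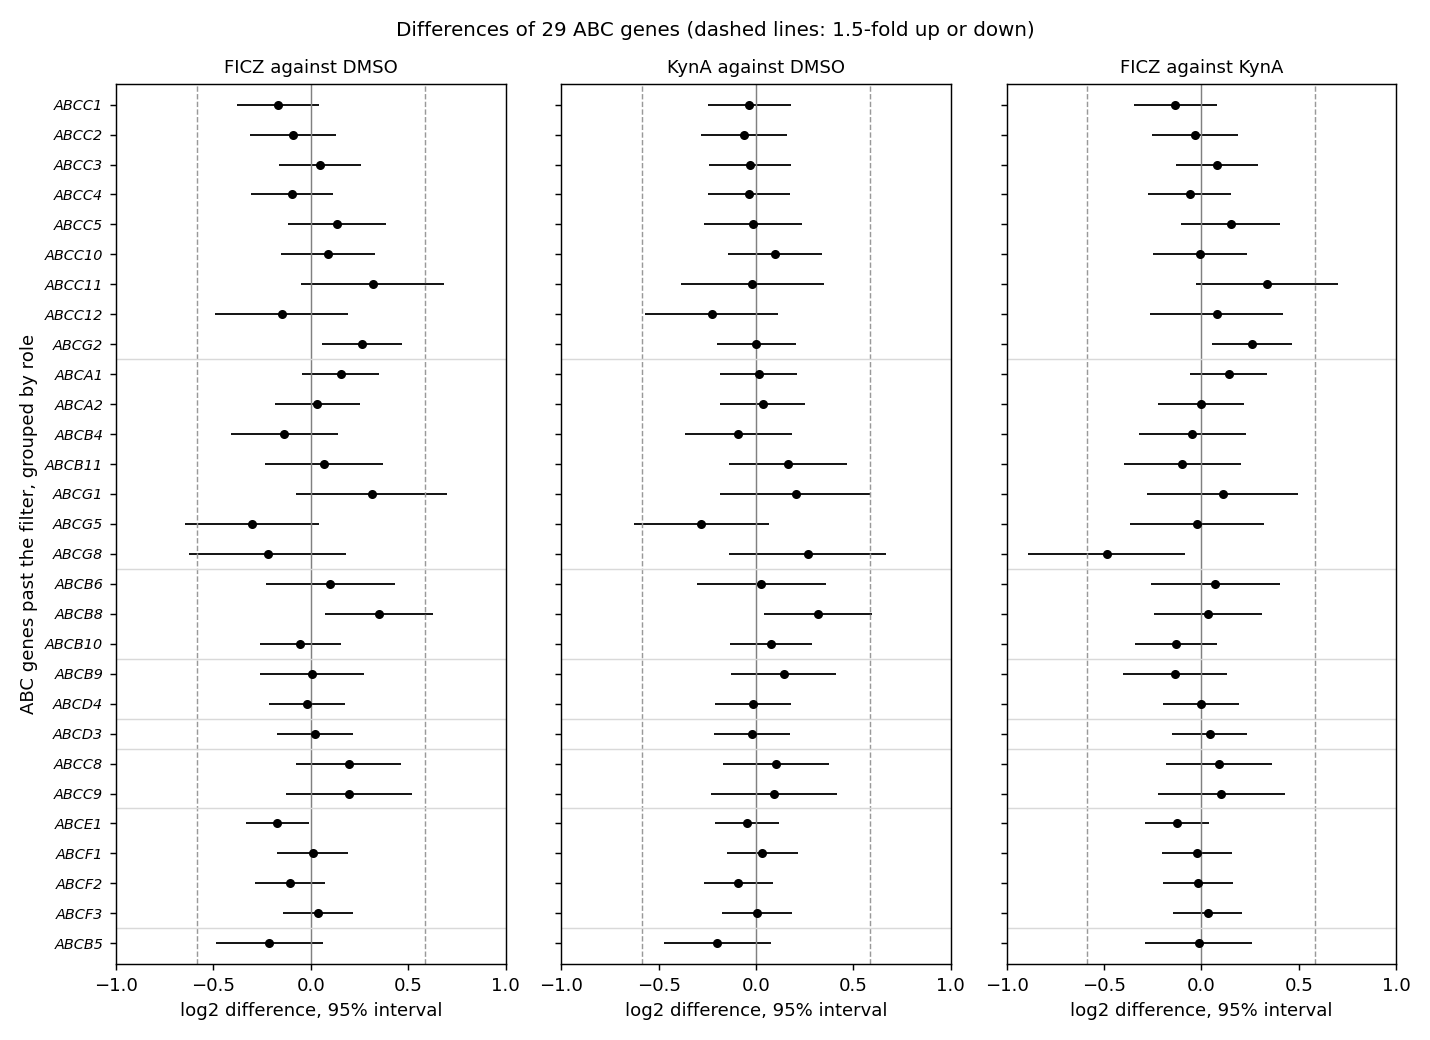
Log2 difference of each of the 29 tested ABC genes in the 3 comparisons (x axis, log2 units; points are differences of group means, bars are 95% intervals from limma, dashed lines mark 1.5-fold either way). Most intervals cross 0, and the widest are those of ABCG8, ABCG1 and ABCC11.

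Promoter windows of the 3 members that differed between FICZ and DMSO at an unadjusted p under 0.05 are shown beside that of TIPARP, an AHR target that rose with FICZ, so that their AHR core motifs can be compared. They are RefSeq windows of the GRCh38.p14 assembly, 250 bases before to 50 after the annotated start, written 5′ to 3′ along the gene's strand, with capitals marking GCGTG or its reverse complement CACGC. ABCG2 lies at chr4:88231577-88231876 on the minus strand, ABCB8 at chr7:151028200-151028499 on the plus strand, ABCE1 at chr4:145098061-145098360 on the plus strand and TIPARP at chr3:156674340-156674639 on the plus strand.
ABCG2: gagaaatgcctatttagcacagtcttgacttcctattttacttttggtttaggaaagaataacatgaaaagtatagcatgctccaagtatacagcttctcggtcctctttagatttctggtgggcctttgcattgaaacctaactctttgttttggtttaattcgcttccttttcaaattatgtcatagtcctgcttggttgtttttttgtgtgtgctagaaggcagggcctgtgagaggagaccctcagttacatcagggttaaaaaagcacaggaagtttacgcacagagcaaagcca
ABCB8: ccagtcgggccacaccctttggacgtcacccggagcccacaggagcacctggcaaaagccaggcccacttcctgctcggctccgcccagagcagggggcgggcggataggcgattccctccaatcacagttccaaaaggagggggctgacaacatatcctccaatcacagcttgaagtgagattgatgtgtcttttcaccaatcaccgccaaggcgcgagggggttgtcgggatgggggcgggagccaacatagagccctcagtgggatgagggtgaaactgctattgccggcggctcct
ABCE1: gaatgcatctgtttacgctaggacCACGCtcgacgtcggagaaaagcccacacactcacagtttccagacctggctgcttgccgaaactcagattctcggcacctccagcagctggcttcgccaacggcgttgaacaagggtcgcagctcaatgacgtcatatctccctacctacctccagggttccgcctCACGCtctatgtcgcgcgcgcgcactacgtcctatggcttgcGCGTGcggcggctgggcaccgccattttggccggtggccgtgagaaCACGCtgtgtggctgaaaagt
TIPARP: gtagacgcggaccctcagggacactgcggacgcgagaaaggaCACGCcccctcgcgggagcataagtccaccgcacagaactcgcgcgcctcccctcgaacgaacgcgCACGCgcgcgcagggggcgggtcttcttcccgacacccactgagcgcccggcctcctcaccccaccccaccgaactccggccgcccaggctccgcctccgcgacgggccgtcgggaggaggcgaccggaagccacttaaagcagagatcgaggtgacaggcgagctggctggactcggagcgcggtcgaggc

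The windows of ABCG2 and ABCB8 held no GCGTG on either strand. That of ABCE1 held 4, beginning at positions -226, -59, -17 and 29 from the annotated start, and that of TIPARP held 2, at -208 and -142. A window was found for 31 of the 38 members, and 13 of these (41.9%) held the motif, where 36.5% of 35116 promoters did. The antioxidant response core TGACNNNGC, also read on both strands, was in 7 of 31 members (22.6%) and in 13.3% of all promoters. A match is a stretch of letters in a window of 300 bases and no record of binding, and its absence says nothing of sites elsewhere. For each member only the window at its listed start was searched. Any alternative start, also of ABCG2, was not searched, and which start these cells use was not tested. The ABCG2 window is thus no statement on every promoter of that gene.

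Among the exporters of drugs and conjugates, 9 of 11 were tested and 0 were called in any comparison. ABCG2 read 7.72, 7.56, 7.88 and 7.89 with DMSO (7.765 ± 0.157, SD, n = 4), 8.07, 8.02, 7.97 and 8.05 with FICZ (8.027 ± 0.043), and 7.61, 7.74, 7.97 and 7.75 with KynA (7.767 ± 0.150). All 4 FICZ arrays lay above all 4 DMSO arrays, and the FICZ and KynA groups overlapped only through KynA 3. The FICZ difference was 0.26 ± 0.0955 (SE; 95% interval 0.06 to 0.47; 19.9% higher; limma adjusted p = 0.227), so that it did not pass the test over all genes. The KynA difference was 0.0021 (interval -0.20 to 0.21; adjusted p = 0.9996), and FICZ exceeded KynA by 0.26 (interval 0.06 to 0.46; adjusted p = 0.502). ABCG2 lay near the filter and exceeded it in 9 of 12 arrays. An increase of 1.5-fold in array signal with FICZ lay outside its interval. RMA shrinks differences of dim probes, so the difference in RNA may be larger than the interval shows.

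ABCC1, the multidrug resistance protein MRP1, exports glutathione conjugates. It read 8.74, 8.70, 8.89 and 8.77 with DMSO, 8.53, 8.65, 8.59 and 8.66 with FICZ, and 8.60, 8.52, 8.95 and 8.90 with KynA. All 4 FICZ arrays lay below all 4 DMSO arrays, while the KynA arrays spanned both. The FICZ difference of -0.17 ± 0.0994 did not pass (adjusted p = 0.458), nor did the KynA difference of -0.04 (adjusted p = 0.9996). Over the whole family, 3 of 29 members had FICZ and DMSO groups that did not overlap, where 7.86% of all genes had. ABCG2 was on the higher side (1 of 29, against 2.94%), and ABCC1 and ABCE1 were on the lower side (2 of 29, against 4.91%). The counts were 0 of 29 for KynA against DMSO (2.41% of all genes) and 0 of 29 for FICZ against KynA (4.18%).

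ABCC11, a transporter of lipophilic anions known for setting earwax type, read 7.45, 7.09, 8.04 and 7.52 with DMSO, 7.67, 7.74, 8.09 and 7.88 with FICZ, and 7.27, 7.69, 7.36 and 7.71 with KynA. The FICZ arrays were above 3 of the 4 DMSO arrays and overlapped the group through DMSO 3. The difference was 0.32 ± 0.171 with FICZ (adjusted p = 0.411; 0.17 without DMSO 2, and 0.49 with adjusted p = 0.197 without DMSO 3) and -0.02 with KynA, and FICZ exceeded KynA by 0.34 (adjusted p = 0.629). ABCC11 passed the filter in 4 arrays only, DMSO 3, FICZ 3, FICZ 4 and KynA 4. ABCC12, its close relative, read 8.03, 8.32, 7.96 and 8.07 with DMSO, 8.20, 8.07, 7.82 and 7.68 with FICZ, and 8.06, 8.06, 7.34 and 8.00 with KynA. The groups overlapped, with KynA 3 far below the rest, and the differences were -0.15 with FICZ and -0.23 with KynA (adjusted p = 0.704 and 0.9996). Without KynA 3 the KynA difference was -0.055, and without FICZ 4 the FICZ difference was -0.06. The other exporters tested were ABCC2, ABCC3, ABCC4, ABCC5 and ABCC10, of which ABCC2 and ABCC3 move bilirubin and bile acid conjugates, and ABCC4 and ABCC5 move cyclic nucleotides. With FICZ their differences ran from -0.10 (ABCC4) to 0.14 (ABCC5), and with KynA from -0.06 (ABCC2) to 0.10 (ABCC10).

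ABCB1, the P-glycoprotein that lines the blood-brain barrier, was dim. It read 7.51, 7.63, 7.25 and 6.90 with DMSO, 7.54, 7.20, 7.12 and 7.43 with FICZ, and 7.32, 7.44, 7.38 and 7.41 with KynA, and was above the filter in 0 arrays. The 3 groups overlapped, and in the fit without a filter both differences were close to 0, at -0.0004 with FICZ and 0.06 with KynA.

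**Figure D2:**
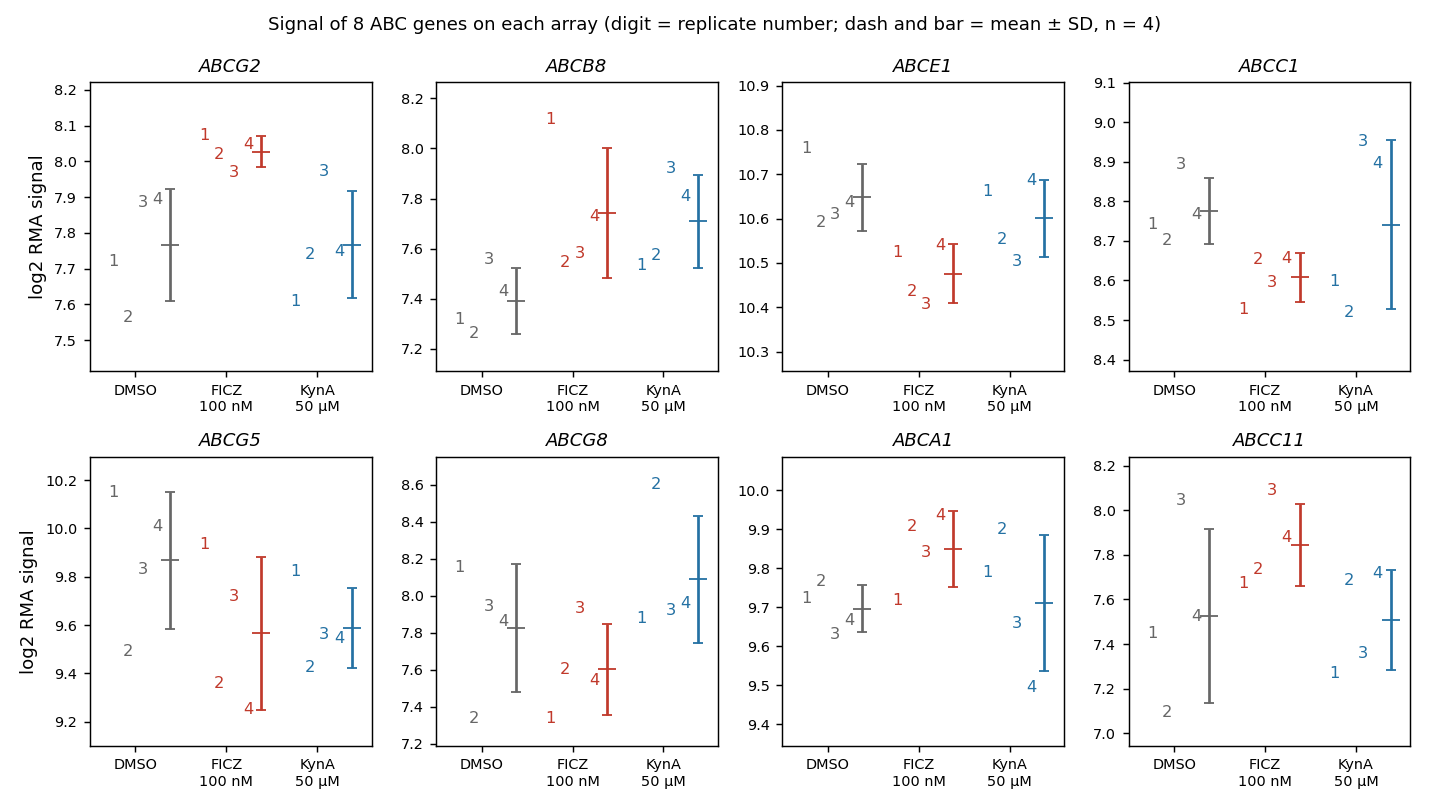
Log2 signal (y axis) of 8 ABC genes in each of the 12 arrays by group (x axis), with digits giving the replicate, dashes the group mean and bars its SD, n = 4; the axis range differs between panels. The 4 FICZ arrays of ABCG2 sit between 7.97 and 8.07, above all DMSO arrays, while those of ABCE1 and ABCC1 sit below them.

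The lipid and sterol transporters had 14 of 18 listed genes with a row, 7 of them tested, and 0 were called in any comparison. ABCG5 and ABCG8 are half-transporters that pair to send sterols into bile and the gut, and their genes lie head to head on chromosome 2, where the RefSeq promoter windows share 231 bases on opposite strands. ABCG5 read 10.15, 9.49, 9.83 and 10.01 with DMSO, 9.93, 9.36, 9.72 and 9.25 with FICZ, and 9.82, 9.43, 9.56 and 9.54 with KynA. ABCG8 read 8.15, 7.34, 7.94 and 7.86 with DMSO, 7.34, 7.60, 7.93 and 7.54 with FICZ, and 7.88, 8.60, 7.92 and 7.96 with KynA. Both overlapped between groups, and for ABCG8 the KynA group held 1 array, KynA 2, well above its other arrays. ABCG5 differed from DMSO by -0.30 ± 0.161 with FICZ and -0.28 ± 0.161 with KynA (adjusted p = 0.406 and 0.9996). ABCG8 differed by -0.22 ± 0.188 with FICZ and 0.27 ± 0.188 with KynA, and by -0.49 between FICZ and KynA (interval -0.89 to -0.08; adjusted p = 0.520), which was -0.31 without KynA 2. Single arrays moved these values, to 0.09 without KynA 2 and 0.10 without DMSO 2 for KynA, and to -0.11 without DMSO 1 and -0.38 without DMSO 2 for FICZ.

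ABCA1 and ABCG1 load cholesterol onto apolipoproteins and lipoproteins and are classical targets of the liver X receptors. ABCA1 read 9.72, 9.77, 9.63 and 9.67 with DMSO, 9.72, 9.91, 9.84 and 9.94 with FICZ, and 9.79, 9.90, 9.66 and 9.49 with KynA. All 4 FICZ arrays lay above the DMSO mean, yet the groups overlapped, and the difference was 0.15 ± 0.0924 (adjusted p = 0.466). ABCG1 read 8.61, 8.61, 8.51 and 8.17 with DMSO, 8.23, 9.09, 8.61 and 9.21 with FICZ, and 8.63, 8.87, 8.70 and 8.51 with KynA. Its FICZ arrays were the most scattered, from below most DMSO arrays to above all of them. The FICZ difference was 0.31 ± 0.181 (adjusted p = 0.447), which was 0.50 without FICZ 1 (adjusted p = 0.144) and 0.17 without FICZ 4. The other 3 tested were ABCA2, expressed in myelinating cells, ABCB4, a phospholipid floppase of the bile canaliculus, and the bile salt pump ABCB11, with FICZ differences of 0.03, -0.14 and 0.07 and KynA differences of 0.03, -0.09 and 0.16.

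Of the genes that work with these transporters (liver X receptors, their partners and targets, and cholesterol carriers), 0 of 9 tested were called in any comparison. The smallest FICZ p-values belonged to the phospholipid transfer protein PLTP at -0.11, the lipoprotein receptor SCARB1 at 0.11 and the phospholipid acyltransferase LPCAT3 at 0.09 (adjusted p = 0.561, 0.681 and 0.762).

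Mitochondrial transporters had 3 of 4 listed genes with a row, and 0 of 3 were called. ABCB8, a half-transporter of the inner mitochondrial membrane, read 7.32, 7.26, 7.56 and 7.43 with DMSO, 8.11, 7.54, 7.58 and 7.73 with FICZ, and 7.53, 7.57, 7.92 and 7.81 with KynA. All 8 arrays with a ligand lay above the DMSO mean, and both ligand groups overlapped DMSO only through DMSO 3. The difference was 0.35 ± 0.129 with FICZ (1.28-fold; adjusted p = 0.231; 0.23 without FICZ 1) and 0.32 ± 0.129 with KynA (adjusted p = 0.9996). The arrays that brought it past the filter were FICZ 1, FICZ 4, KynA 3 and KynA 4. A second cluster, annotated to ABCB8 together with its neighbour ASIC3, differed by -0.05 ± 0.117 with FICZ and 0.02 ± 0.117 with KynA (adjusted p = 0.883 with FICZ, among the 1494 tested clusters with several or no symbols). Which of these clusters reports ABCB8 could not be settled, so the values of the first may not be those of ABCB8, and the difference between the clusters was not tested. ABCB6, a transporter linked to porphyrins, and ABCB10, which takes part in haem synthesis, differed by 0.10 and -0.05 with FICZ and by 0.03 and 0.08 with KynA.

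These transporters serve the haem and iron-sulfur cluster pathways, of which 16 of 20 listed genes were tested. With FICZ 1 of 16 rose and 0 fell, where 65 and 27 of the 10807 genes tested did. With KynA 0 of 16 were called, where 1 of 10807 was. The member that rose was CPOX, which makes protoporphyrinogen in the mitochondrial intermembrane space, by 0.63 ± 0.124 (limma adjusted p = 0.0313). With KynA the CPOX difference was 0.53 (adjusted p = 0.494). The CPOX call was lost when any DMSO array was left out, or FICZ 2, 3 or 4 (adjusted p = 0.0504 to 0.104), and with no filter (0.0502).

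The lysosomal half-transporters ABCB9, which carries peptides, and ABCD4, which takes part in vitamin B12 release, differed from DMSO by 0.0053 and -0.02 with FICZ and by 0.14 and -0.02 with KynA. ABCD3, a peroxisomal importer of fatty acids, was the 1 of 3 peroxisomal members with a row and differed by 0.02 with FICZ and -0.02 with KynA. Of 12 tested genes of peroxisomal import and beta-oxidation, 0 were called in any comparison. The potassium channel regulators ABCC8 and ABCC9, the sulfonylurea receptors SUR1 and SUR2, differed by 0.19 and 0.20 with FICZ and by 0.10 and 0.09 with KynA (adjusted p = 0.497 and 0.580 with FICZ). None of these 5 genes passed the test. ABCB5, which marks melanoma-initiating cells and is in no role list, read 8.83, 8.97, 9.13 and 8.67 with DMSO, 8.61, 8.42, 8.91 and 8.81 with FICZ, and 8.66, 8.49, 8.72 and 8.92 with KynA. The groups overlapped, and the differences were -0.21 and -0.20 (adjusted p = 0.464 and 0.9996).

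The 4 translation members all passed the filter in 12 arrays, and 0 were called. ABCE1, which splits ribosomes for recycling and carries iron-sulfur clusters, read 10.76, 10.59, 10.61 and 10.64 with DMSO (10.648 ± 0.075, SD, n = 4), 10.52, 10.44, 10.41 and 10.54 with FICZ (10.476 ± 0.066), and 10.66, 10.55, 10.50 and 10.69 with KynA (10.601 ± 0.087). All 4 FICZ arrays lay below all 4 DMSO arrays, and KynA overlapped both groups. The differences were -0.17 ± 0.0761 with FICZ (0.888-fold; adjusted p = 0.316), -0.05 with KynA, and -0.12 between FICZ and KynA (adjusted p = 0.700). ABCF2 and ABCF3, cytosolic ABC proteins without transport function, read between 10.21 and 10.57 and between 9.88 and 10.15 over the 12 arrays. Their FICZ differences were -0.11 and 0.04, that of ABCF1, a translation initiation cofactor, was 0.0096, and the groups overlapped for each. Among genes of ribosome recycling and the partners of these proteins, 0 of 10 were called in any comparison. PELO, which recognises stalled ribosomes before ABCE1 splits them, differed by -0.27 ± 0.0996 with FICZ (adjusted p = 0.227).

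The 9 members that did not pass the filter are given by their levels, with no test. The lipid transporters ABCA3 of lung surfactant, ABCA4 of the retina and ABCA13 read 6.98 to 7.59, 7.24 to 7.68 and 6.86 to 7.56 over the 12 arrays, and were above the filter in 0 arrays. ABCG4, a sterol transporter of the nervous system, read 7.02, 7.52, 7.13 and 7.10 with DMSO, 7.56, 7.36, 7.50 and 7.54 with FICZ, and 7.13, 7.62, 6.91 and 7.31 with KynA, also in 0 arrays above the filter. Its FICZ arrays were above 3 of the 4 DMSO arrays, in a range where signal and background are hard to separate. ABCA5, ABCA7 and ABCA9 read 6.91 to 8.05, 7.12 to 7.83 and 7.27 to 8.10, and were above the filter in 1, 2 and 2 arrays. ABCC6, which controls pyrophosphate release and has near-identical pseudogene copies whose signal may be shared, read 7.11 to 7.71 and was above it in 0 arrays, as was ABCB1.

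**Figure D3:**
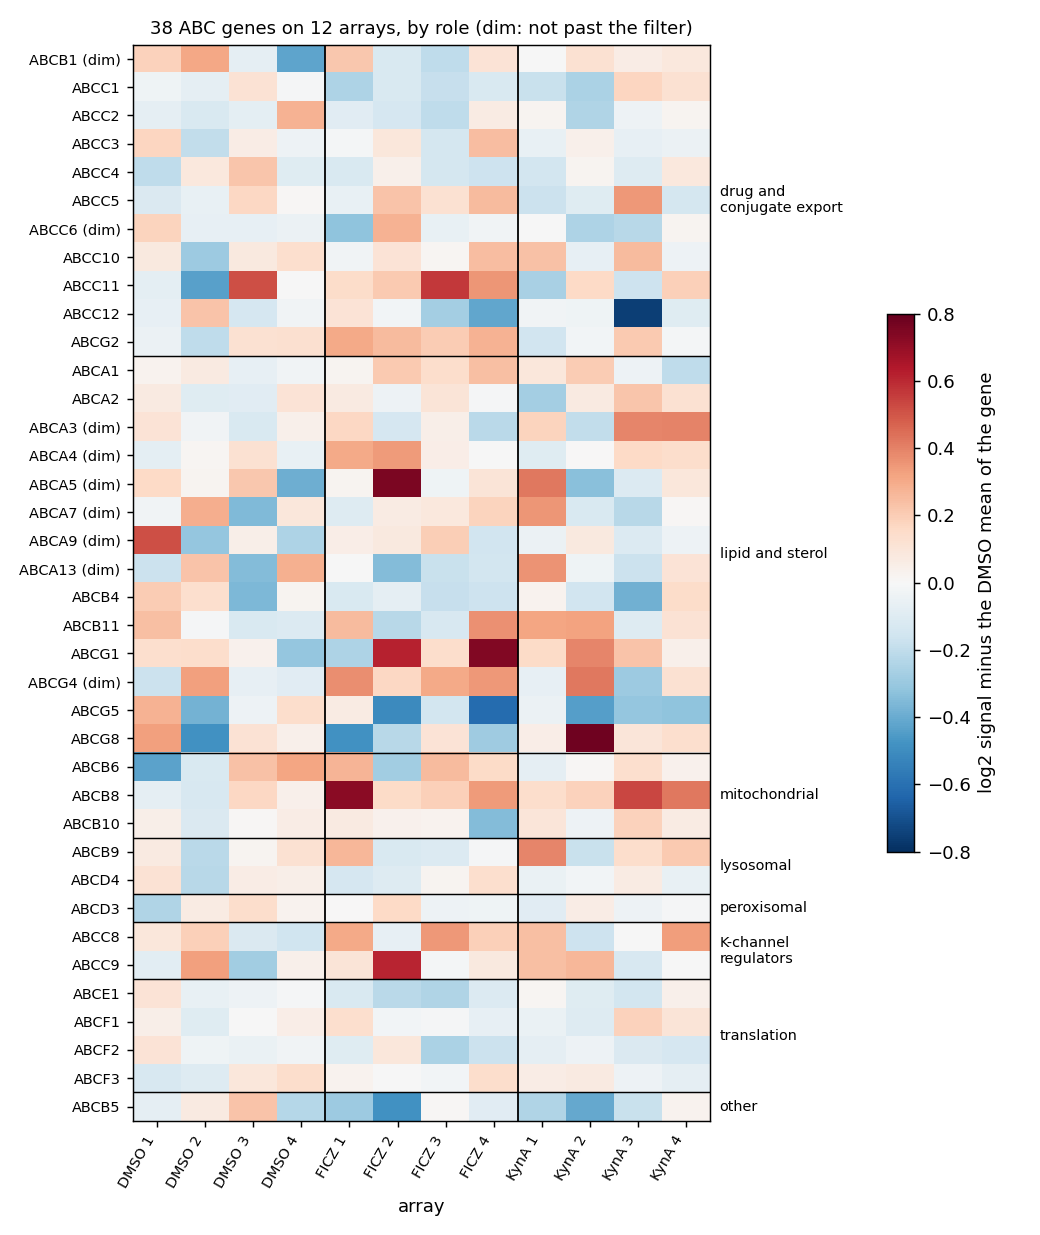
Deviation of each of the 38 ABC genes (rows, by role) from its DMSO mean in each of the 12 arrays (columns by group); colour runs from -0.8 to 0.8 on the log2 scale. Deviations run from -0.751 to 0.777, and no role group has 1 colour throughout the FICZ or KynA columns.

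Described as a group, the 29 tested members had medians close to 0 in each comparison. With FICZ 17 of 29 lay above 0 (58.6%, against 41.4% of all genes) with a median of 0.02, against -0.03 for all genes. With KynA it was 15 of 29 (51.7%, against 47.6%), with a median of 0.0021 against -0.0060. Between FICZ and KynA 13 of 29 lay above 0 (44.8%, against 42.7%), with medians of -0.0032 and -0.023. Differences of at least 1.2-fold were seen in 4, 3 and 2 of 29 members in these comparisons (13.8%, 10.3% and 6.90%), against 12.7%, 3.66% and 7.48% of all genes. ABCB8, which passed the filter only on arrays with a ligand, is in the counts of both ligands against DMSO, above 0 and at 1.2-fold. The others at 1.2-fold with KynA were ABCG5 and ABCG8, and the ABCG8 difference was 0.09 without KynA 2.

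The same arrays held changes in AHR targets. With FICZ 3 of 6 tested genes of the AHR target list rose, where 65 of the 10807 genes tested did. They were TIPARP by 1.21 ± 0.134, CYP1B1 by 1.07 ± 0.165 and AHRR by 0.97 ± 0.147 (limma adjusted p = 0.000659, 0.00629 and 0.00565). With KynA 0 of 6 were called, where 1 of 10807 was. At an unadjusted limma p under 0.05 the same 3 genes were higher with KynA, 3 of 6 where 3.39% of all genes differed in either direction, TIPARP by 0.61, CYP1B1 by 0.71 and AHRR by 0.54 (adjusted p = 0.469, 0.494 and 0.854). TIPARP is an ADP-ribosyltransferase, CYP1B1 a cytochrome P450 and AHRR a repressor of AHR. The upper bound for ABCG2 with FICZ, 0.47, lay below each of the FICZ differences of these 3 genes in array signal. Differences near the filter, where ABCG2 lay, may be understated. The other tested genes of the AHR list were not called with FICZ. ALDH3A1 differed by -0.11, and the means with DMSO and FICZ were 10.67 and 10.76 for NQO1 and 8.55 and 8.81 for CYP1A2. CYP1A1 was not analysed here. Of the genes that supply or precede export, 0 of 14 tested genes of conjugation and glutathione supply were called in any comparison, and 0 of 5 uptake carriers. The carrier SLCO2A1 differed by -0.83 with FICZ and -1.13 with KynA, while 3 and 2 of the 5 carriers lay above 0. Its arrays were scattered, at 8.20 to 8.83 with DMSO, 6.07 to 8.47 with FICZ and 6.77 to 8.41 with KynA. The glutathione transferase GSTA4 and the glutathione synthetase GSS differed by -0.22 and -0.16 with FICZ (adjusted p = 0.278 and 0.335). The 3 ABC-class genes with other symbols, the chloride channel CFTR and the peptide transporters TAP1 and TAP2, were not called, with FICZ differences of 0.30, 0.01 and -0.05. The FICZ arrays of CFTR (7.77 to 8.02) all lay above its DMSO arrays (7.40 to 7.71), as in 2.94% of all genes tested. For TAP1 and TAP2 the groups overlapped.

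Markers of other cell types were measured in the same arrays. Of the endothelial list 2 of 5 genes had a row, and their mean per array ran from 7.991 to 8.202 with DMSO, 8.035 to 8.567 with FICZ and 8.072 to 8.537 with KynA. The defining endothelial genes PECAM1, CDH5 and CLDN5 were not analysed here, and VWF, the von Willebrand factor, differed by -0.10 with FICZ (adjusted p = 0.854), and KDR, a growth factor receptor, rose with FICZ by 0.48 ± 0.0939 (limma adjusted p = 0.0293), a call lost in the 5 fits that left out DMSO 1, 2 or 3 or FICZ 2 or 3 (highest adjusted p 0.0868). For the myeloid list (4 of 5 genes, without CD68) the means were 7.995 to 8.345 with DMSO, 8.216 to 8.669 with FICZ and 8.171 to 8.366 with KynA. TMEM119 rose with FICZ by 0.63 ± 0.124 (limma adjusted p = 0.0320). That call was lost in the 5 fits that left out DMSO 1, 2 or 3 or FICZ 2 or 4 (highest adjusted p 0.105) and with no filter (0.0515). The other myeloid genes were not called with FICZ. PTPRC differed by -0.02. The means with DMSO and FICZ were 8.39 and 8.47 for AIF1 and 8.42 and 8.65 for CSF1R. For the astrocyte list (3 of 4 genes) the means per array with DMSO, FICZ and KynA were 7.783 to 8.256, 8.186 to 8.441 and 8.000 to 8.284. For the neuronal list (3 of 4) they were 8.236 to 8.324, 8.104 to 8.267 and 8.177 to 8.261. The part of these markers in the ABC values was not tested. All 12 samples were of the U-87MG line, so a marker here is a gene measured in that line and no count of other cells.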

How the data were processed

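The authors deposited log2 values, produced with oligo's RMA per the submitters' processing notes. Versions and the rule that left dim clusters out of the table were not given in the sources used here. RMA shrinks differences of dim probes, so differences near the filter may be understated. Symbols came from the platform annotation, which can be old; all 38 members matched a RefSeq gene ID.

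From these values, a limma fit of 3 group means to the 12 arrays, with eBayes (9 residual and 5.19 prior degrees of freedom) gave log2 differences, 95% intervals and two-sided p-values with Benjamini-Hochberg adjustment over 10807 genes. A gene was tested if above the 25th percentile of clusters with 1 symbol in at least 4 arrays. Precision is limited by the number of arrays, which carry no depth of reads. The fit was tested on simulated data. The members and lists were chosen with earlier results of these data known. Genes named are ABCG2, ABCB1 and ABCC1, the 4 members with the smallest p per comparison, the 4 with the highest and the 4 with the lowest mean, those not past the filter, and up to 3 genes per list with the smallest p. The other members were added after their values were seen, as were KDR, TMEM119 and the other myeloid genes. Alternatives tried were the replicate block, leaving out single arrays, weighting arrays, fitting only the compared groups, a trended and robust variance, averaging clusters, dropping the filter or raising it to the 50th percentile, cyclic loess and median centring. Tools were R 4.3.3, limma 3.58.1, data.table, version 1.17.8, Python 3.11.15, pandas 2.3.3 and matplotlib 3.10.9.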

Additional observations from a re-analysis of the deposited data

Results flagged for a closer look

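In 9 of 114 groups of 4 arrays (38 members in 3 groups), 1 array lay far from the other arrays of its group by Dixon's ratio, where chance gives about 5%. With DMSO, ABCC10 read 7.572 on array 2 (next 7.941), ABCC2 8.760 on array 4 (next 8.408), ABCF2 10.569 on array 1 (next 10.433) and the dim ABCC6 7.614 on array 1 (next 7.385). With FICZ, ABCB10 read 7.324 on array 4 (next 7.700). With KynA, ABCC12 read 7.343 and ABCC5 8.036 on array 3 (next 7.995 and 7.593), and ABCG8 read 8.600 and ABCC3 8.640 on array 2 (next 7.955 and 8.549).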

How the results depend on the processing

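No member was called in any of the 3 comparisons under any of the 9 settings or without any of the 12 arrays. The lowest adjusted p was 0.144 for FICZ against DMSO (ABCG1 without FICZ 1), 0.999 for KynA against DMSO and 0.321 for FICZ against KynA (ABCG8 without FICZ 3). Of the 29 members, 19, 12 and 14 kept the sign of their difference in every setting of these comparisons. The ABCG2 difference with FICZ against DMSO stayed between 0.194 and 0.304 without single arrays (adjusted p = 0.203 to 0.389), and that against KynA between 0.207 and 0.328. At a filter of the 50th percentile ABCG2 was not tested. The ABCG2 difference with KynA against DMSO changed sign, at -0.002 with cyclic loess, -0.02 with array weights and -0.066 to 0.055 without single arrays. The median of the members ran from -0.018 to 0.043 with FICZ against DMSO and from -0.013 to 0.037 with KynA against DMSO without single arrays.

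Over all genes, the count called with FICZ was 140 with trend and robust, 43 with only the groups compared, 135 with the replicate block, 62 with no filter and 42 to 103 without single arrays; with KynA it was 2 with trend and robust and 1 to 2 without single arrays. For FICZ against KynA it was 2 with no filter. With only the groups compared, CPOX, KDR and TMEM119 lost their call (adjusted p = 0.0757, 0.0531 and 0.067), and the cause was not tested. Arrays with the same replicate number deviated together in 6 of 12 pairs (r over 0.1; range -0.133 to 0.213), as did 5 of 36 pairs with different numbers. As a hint from the data, 7 of 12 arrays were closest to their own number. The number that unrelated arrays would give was not worked out. The median r was 0.0972 in pairs with the same number and -0.0386 in the others. The numbers were not taken to pair the samples, since the labels name no shared batch or day, and whether there was one was not tested. With the replicate block the ABCG2 difference with FICZ stayed 0.262 (adjusted p = 0.188), and 0 members were called. Signals near the filter limit what can be said of ABCB8 and ABCC11 (above it in 4 arrays each), ABCB10 (5), ABCC5 (6), ABCB9 and ABCG8 (8 each), ABCG2 (9) and the 9 dim members.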
